A study of Mus musculus with 18 samples.

Results

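Gene expression was compared between CD4 single positive (SP4) thymocytes and CD69- CD4+CD8+ double positive (CD69- DP) thymocytes of mouse fetuses on embryonic day 18.5. The SP4 side held 6 arrays and the CD69- DP side 6 arrays, chosen by their labels alone, which makes 12 of the 18 arrays of the series. Each side had 2 arrays from Gli3-/- fetuses, 2 from Gli3+/- fetuses and 2 from wild-type (WT) fetuses, so that genotype was balanced between the populations. The remaining 6 arrays, of CD69+ DP cells, the stage between the others, entered no test of the net change and are given only to show on which side of CD69 acquisition a gene moved. The Gli3 mutation was carried by the whole embryo, stroma and thymocytes alike, and the dim Gli3 probe signal was at 28.99 to 32.68 on the 4 Gli3-/- arrays, at 27.6 to 33.98 on the 4 Gli3+/- arrays and at 29.4 to 34.61 on the 4 WT arrays. These ranges overlap, and no source read for this work says where the probes lie relative to the mutation, so Gli3 does not check the genotype labels. Cells were sorted on CD4, CD8 and CD69. The SP4 gate was CD4 without CD8 and named neither a TCR stain nor CD69. The labels do not say whether the 2 arrays of a group came from separate fetuses or from pools. The sex-linked transcript Xist was at 39.7 and 2726 on the 2 WT SP4 arrays and at 52.4 and 2946 on the 2 WT CD69- DP arrays. The 2 WT arrays of a population thus held different material. Whether this holds for the Gli3-/- and Gli3+/- arrays was not tested. The second WT and all Gli3+/- arrays gave both Xist (2726 to 3207) and summed Y-linked signals (525 to 1146). These arrays thus held material of both sexes, and so of more than 1 fetus. Whether the other arrays came from pools was not tested. Every p-value below measures the spread between these samples, which may be technical in part.

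A CD69- DP thymocyte has finished rearranging its TCR beta gene, is rearranging TCR alpha, and dies unless its TCR binds self peptide on MHC. Binding starts positive selection: CD69 appears, recombination ends, and a cell restricted to MHC class II keeps CD4, silences CD8, acquires the interleukin 7 receptor and the survival factor Bcl2, moves to the medulla and finally becomes able to leave the thymus. The net change measured here spans that whole passage. In sorted bulk populations a lower signal can come from fewer cells of a type or from less RNA per cell, and these cannot be told apart.

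Among 22180 genes, 3406 (15.4%) passed an adjusted p of 0.05 (limma, Benjamini-Hochberg over all genes, genotype and replicate number as blocks), 1858 (8.38%) higher in SP4 and 1548 (6.98%) lower. The large changes ran mostly upwards. Among the genes that passed, 235 (1.06%) were at least 2-fold higher in SP4 and only 22 (0.0992%) at least 2-fold lower, and a log2 difference of 2 or more was reached by 48 higher and 0 lower genes. The 22 rested in part on 1 array pair: without the first WT SP4 array 8 genes were at least 2-fold lower, and without the first WT CD69- DP array 12. That SP4 array and its partner also differed from the other 10 arrays in Xist, at 39.7 and 52.4 against 2726 to 4850. In 233 of the 235 and in 22 of the 22 all 6 SP4 arrays differed in the same direction from the CD69- DP array of the same genotype and number. Their selection on the same 12 arrays for size and adjusted p favoured this agreement, which is therefore no separate evidence. The 6 SP4 arrays lay wholly above the 6 CD69- DP arrays for 916 genes (4.13%) and wholly below them for 598 (2.7%). The arrays were alike in scale, with medians of 59.3 to 64.2. Correlations of log2 values between pairs of the 12 arrays, of 1 population or of different ones, were 0.958 to 0.990. The median log2 difference over all genes was -0.01. Below, 3 values given for a population are its lowest, median and highest array on the linear RMA scale, and differences are log2 (SP4 minus CD69- DP) ± SE with the adjusted p of the limma fit. Signals of different genes come from different probes and are not compared.

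**Figure D1:**
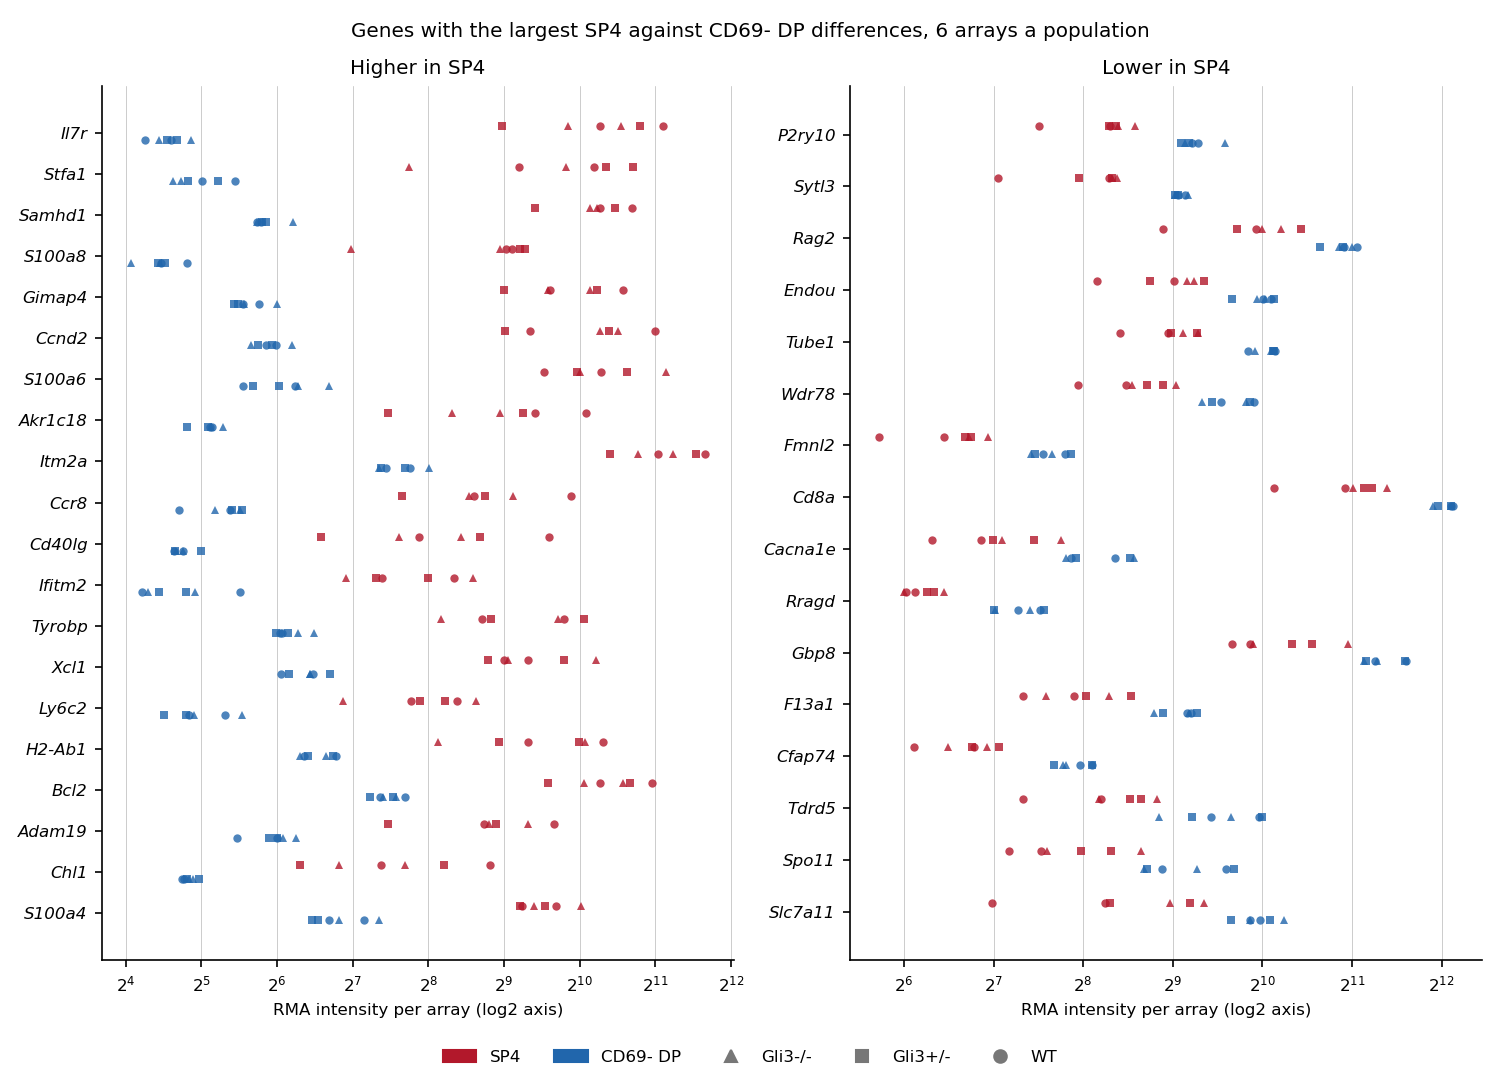
RMA intensity (log2 axis) of the 36 genes of largest change on each of the 12 arrays, in 1 panel for the genes higher and 1 for the genes lower in SP4; red points are SP4 arrays, blue points CD69- DP arrays, and the marker shape gives the genotype. The 20 higher genes (log2 difference 2.68 to 5.70) and the 16 lower genes (-1.01 to -1.44) separate the populations, as their selection required.

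The genes that mark the starting and end points separated the populations. Il7r, the interleukin 7 receptor alpha chain, was at 504, 1368 and 2195 in SP4 and at 19.1, 23.8 and 28.9 in CD69- DP, the largest difference of all genes (5.70 ± 0.19, adjusted p = 3.66e-10). Rag2, a subunit of the recombinase, was at 475, 1001 and 1377 in SP4 and at 1595, 1920 and 2121 in CD69- DP (-1.03 ± 0.16, adjusted p = 0.000448). Dntt, which adds untemplated bases at the joins, was at 292, 415 and 695 in SP4 and at 660.5, 1106 and 1585 in CD69- DP (-1.32 ± 0.19, adjusted p = 0.000204). Of these 3 genes Dntt alone had arrays that overlapped, the highest SP4 array lying just above the lowest CD69- DP array. Cd8a was at 1120, 2154 and 2689 in SP4 and at 3822, 4406 and 4483 in CD69- DP (-1.08 ± 0.15, adjusted p = 0.000169), and Cd8b1, the partner chain, at 1721, 3006 and 3371 in SP4 and at 4063, 4491 and 4642 in CD69- DP (-0.68 ± 0.12, adjusted p = 0.00146). Both fell without overlap, CD8 protein having set the gates, and the SP4 arrays, though sorted as CD8 negative, still gave Cd8a signals of 1120 or more, with the first WT array lowest. Cd4 was lower in SP4 as well, at 879.6, 1079 and 1274 against 1396, 1706 and 1804 in CD69- DP (-0.61 ± 0.07, adjusted p = 3.47e-05). Its fall stood between the 2 DP populations (CD69+ DP minus CD69- DP, -0.63) and not between CD69+ DP and SP4 (0.03). The invariant CD3 chains gave differences of -0.02 (Cd3e), -0.04 (Cd3d) and -0.03 (Cd3g), with adjusted p of 0.911, 0.785 and 0.871.

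Genes of V(D)J recombination were mostly lower in SP4. Of 10 measured, 7 fell and 1 rose, with a median log2 difference of -0.44 (all genes -0.01). Beside Rag2 and Dntt the falls covered end joining, which seals the breaks: Lig4, the ligase, was at 175, 288 and 346 in SP4 and at 434, 462 and 536 in CD69- DP (-0.82 ± 0.13, adjusted p = 0.000395), and Nhej1, its cofactor, at 86.0, 99.6 and 119.7 in SP4 and at 142, 151 and 160.2 in CD69- DP (-0.60 ± 0.09, adjusted p = 0.000294). Both ranges were apart. The Ku heterodimer that holds the broken ends did not move as a unit, since Xrcc6 fell (-0.60 ± 0.10, adjusted p = 0.000945) and Xrcc5 rose (0.52 ± 0.08, adjusted p = 0.000331), each without overlap. Prkdc, the kinase that Ku recruits, stood at -0.04 (adjusted p = 0.812). The DNA-bending proteins Hmgb1 (-0.25) and Hmgb2 (-0.29), which assist the recombinase, fell little. The calls for Hmgb1 and Hmgb2 were lost when single arrays were left out.

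Of 14 measured genes typical of the DP stage, 10 fell and 0 rose (median -0.75), and for 9 of them the populations did not overlap. The 10 and the 9 include Cd8a and Cd8b1, whose protein set the gates. Slc7a11, the cystine transporter, had the largest fall of all genes, at 126, 408 and 653 in SP4 and 805, 967 and 1213 in CD69- DP (-1.44 ± 0.23, adjusted p = 0.000507). Tdrd5, a Tudor domain protein known from the germ line, was at 161, 331 and 452 in SP4 and at 459.8, 745 and 1022 in CD69- DP (-1.23 ± 0.21, adjusted p = 0.001). The transcription factor Ets2 (-0.82), the semaphorin receptor Plxnd1 (-0.85), the aquaporin Aqp11 (-0.80), the cyclic AMP-regulated phosphoprotein Arpp21 (-0.92) and Themis (-0.70), which tunes TCR signals in DP cells, were also lower without overlap. The chemokine receptor Ccr9 (-0.11, adjusted p = 0.382), Ly6d (-0.10, 0.699), Cd1d1 (-0.24, 0.0619) and the pre-TCR chain Ptcra (0.04, 0.909) did not pass. Cd24a, the maturation marker HSA, fell by 0.25 on the log2 scale (adjusted p = 0.045), a call that leaving out single arrays removed. One array gave the deepest falls: the first WT SP4 array was the lowest SP4 array for 12 of the 14 genes, and its median difference from its CD69- DP partner was -1.34, against -0.40 to -0.74 in the other 5 pairs.

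The microRNA miR-181a is a known tuner of TCR sensitivity in DP cells, and its host transcripts are most abundant there. The array carried the hairpins of 6 family members, and the list was added after the values were seen. Mir181b-1 was at 117, 145 and 188 in SP4 and at 176, 284 and 362 in CD69- DP, with a narrow overlap (-0.91 ± 0.15, adjusted p = 0.0006). The fall stood after CD69 acquisition (-0.13 between the DP populations, -0.78 from CD69+ DP to SP4). The other 5 hairpins were not called, at -0.20 to 0.06, and Mir181a-1, which is transcribed with Mir181b-1, ranged over 11.2, 35.7 and 129 in SP4 and 12.1, 30.9 and 81.8 in CD69- DP. A hairpin probe reads the precursor or its host transcript, not the mature miRNA. The mature arms of 3 members are shown because they share 1 seed (capitals, bases 2 to 8 from the 5′ end), by which a miRNA pairs with its targets, although the hairpins differed in signal. Sequences are from RefSeq on GRCm38.p6.
miR-181a-5p (Mir181a-1, chr1:137966468-137966490, plus strand): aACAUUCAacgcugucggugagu
miR-181b-5p (Mir181b-1, chr1:137966650-137966673, plus strand): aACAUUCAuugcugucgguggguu
miR-181c-5p (Mir181c, chr8:84178924-84178945, minus strand): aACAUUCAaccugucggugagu

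Lineage factors moved in both directions. Of 10 genes of the CD4 lineage programme 4 rose and 3 fell (median -0.06). Tox, which the CD4 lineage requires, was at 588, 851 and 920.5 in SP4 and at 433, 469 and 479 in CD69- DP (0.78 ± 0.09, adjusted p = 5.65e-05), and Lef1, a partner of beta-catenin, at 2144, 2747 and 3233 in SP4 and at 1385, 1601 and 1788 in CD69- DP (0.80 ± 0.09, adjusted p = 3.74e-05), both without overlap. Gata3 rose by 0.41 and Zbtb7b (ThPOK), the factor that fixes the CD4 fate, by 0.39 (adjusted p = 0.0389), the Zbtb7b arrays overlapping and its call being lost when single arrays were left out. Tox and Gata3 were higher still in CD69+ DP cells, with 1.47 and 0.85 between the DP populations and -0.69 and -0.44 from CD69+ DP to SP4. Myb fell (-0.71 ± 0.14, adjusted p = 0.00258), and the stage at which it fell was the second (0.02, then -0.73).

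Genes of the CD8 and cytotoxic programme were higher, not lower, in SP4: 6 of 10 rose, 1 fell (0 without several single arrays), and the median was 1.02. Runx3, the factor that silences Cd4 in CD8 cells, was at 108, 149 and 163 in SP4 and at 50.8, 64.9 and 77.5 in CD69- DP (1.14 ± 0.11, adjusted p = 7.47e-06). Itgae, the integrin CD103, was at 144, 212 and 441 in SP4 and at 74.4, 75.6 and 88.5 in CD69- DP (1.47 ± 0.17, adjusted p = 4.08e-05), Nkg7, a granule protein, at 242, 337 and 559 in SP4 and at 85.2, 121 and 134 in CD69- DP (1.65 ± 0.16, adjusted p = 6.37e-06), and Gzmb, granzyme B, at 48.6, 123 and 248 in SP4 and at 32.4, 40.0 and 42.9 in CD69- DP (1.55 ± 0.22, adjusted p = 0.000229). None of these overlapped. Prf1, perforin, stood at 0.02 (adjusted p = 0.925) and Eomes at 0.28 (0.0872). The list shares Gzmb and Eomes with the natural killer (NK) and innate lymphoid list, of which 5 of 10 rose. The summed level of that list was 911.7 to 1379 on the number 1 and 1863 to 2115 on the number 2 SP4 arrays, against 844.3 to 1144 in CD69- DP, so the first WT SP4 array lay within the CD69- DP range. The NK receptor genes Ncr1 (0.05) and Klrb1c (0.23) were not called, and the part of these cells in the result was not tested. Among E proteins, which hold DP cells at their stage, and their Id inhibitors, Id2 was at 316, 669.7 and 968 in SP4 and at 64.2, 100.4 and 189.5 in CD69- DP (2.63 ± 0.29, adjusted p = 2.62e-05). Its arrays did not overlap, and it rose in both steps (1.22, then 1.41). Id3, a direct target of Egr factors, rose less (0.48 ± 0.12, adjusted p = 0.00998), a call lost without the replicate number as a block and in the fit of all 18 arrays, and the E protein Tcf12 fell (-0.50 ± 0.11, adjusted p = 0.00512).

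Transcripts induced through the TCR stayed high in SP4. Of 17 measured 16 rose and 0 fell, with a median of 0.83, and for 11 the populations did not overlap. The orphan nuclear receptors led: Nr4a1 was at 508, 669 and 829 in SP4 and at 170.0, 197 and 214 in CD69- DP (1.76 ± 0.12, adjusted p = 3.2e-07), and Nr4a3 at 158, 215 and 281 in SP4 and at 51.3, 53.0 and 55.9 in CD69- DP (2.04 ± 0.10, adjusted p = 7.95e-09). Egr1 was at 152, 236 and 305 in SP4 and at 62.6, 82.4 and 91.1 in CD69- DP (1.50 ± 0.13, adjusted p = 2.4e-06), and Egr2, needed for survival after selection, at 222, 305 and 412 in SP4 and at 128, 138 and 172 in CD69- DP (1.07 ± 0.13, adjusted p = 4.59e-05). Cd69, whose protein set the CD69- DP gate and which is counted in the list, was at 539, 666 and 894 in SP4 and at 92.0, 156 and 220.3 in CD69- DP (2.20 ± 0.19, adjusted p = 2.53e-06). Cd5, a brake on TCR signals whose level follows their strength, was at 1150, 1533 and 1961 in SP4 and at 787, 825 and 943 in CD69- DP (0.85 ± 0.11, adjusted p = 8.06e-05). The net rise was what remained of a larger one: from CD69+ DP to SP4 the differences were -0.62 for Nr4a1, -0.63 for Egr1, -0.67 for Egr2 and -0.58 for Cd69 (adjusted p = 0.093), and 6 of the 17, Cd5 among them, fell in that step while 3 rose (15 of the 17 had risen by CD69+ DP). Over all genes 5.43% were higher and 8.32% lower in CD69+ DP than in CD69- DP, and 8.71% were higher and 4.27% lower in SP4 than in CD69+ DP, in a fit of all 18 arrays. Cd6, a relative of Cd5, came back in full (0.96, then -0.93) and was the member not called over the whole passage. Myc went the other way and rose in both steps (1.05, then 0.62), reaching 515, 587 and 746 in SP4 against 170.2, 186 and 201 in CD69- DP (1.67 ± 0.09, adjusted p = 2.15e-08).

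Immediate early genes, which also answer to cell handling, were less clear: 4 of 9 rose, 0 fell, and 0 of 9 separated the populations. Without the replicate number as a block 1 of 9 passed, and leaving out single arrays gave 3 to 7, the 7 without either first Gli3-/- array. Fos spanned 46.4, 251 and 438 in SP4 and 53.6, 118 and 280.5 in CD69- DP (0.58 ± 0.21, adjusted p = 0.082), and Jun 62.6, 347 and 604 in SP4 and 61.6, 194 and 397 in CD69- DP (0.40 ± 0.15, adjusted p = 0.0997). The spread followed the replicate number. Fos had a mean signal of 69.7 on number 1 and 415 on number 2 SP4 arrays, against 63.4 and 204 on CD69- DP arrays of the same numbers, and Jun 84.1 and 587 on SP4 arrays against 76.2 and 359.7 on CD69- DP arrays.

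Signalling components changed by less than 2-fold, though more of them were called than among all genes. Of 18 genes of proximal TCR signalling 5 rose (27.8%) and 2 fell (11.1%), against 8.38% and 6.98% of all genes (median -0.04). The kinase Fyn (0.49) and the phosphatase Ptpn6 (0.54) rose with Csk (0.53), the kinase that restrains Lck and Fyn, while the adaptor Lat (-0.37) and the phosphatase Ptpn22 (-0.53) fell. Zap70 stood at -0.04 (adjusted p = 0.843). Between the 2 DP populations 9 of the 18 had risen, and 8 fell from CD69+ DP to SP4. Of 13 NF-kappaB genes 4 rose and 3 fell (median 0.14), but leaving out single arrays gave 3 to 5 higher and 1 to 4 lower genes, with 1 lower without the first WT SP4 or the first WT CD69- DP array among others. Rel, the c-Rel subunit typical of lymphocytes, was at 349.5, 576 and 861 in SP4 and at 147, 180.3 and 194 in CD69- DP (1.65 ± 0.13, adjusted p = 1.57e-06), and it had risen by CD69+ DP (1.67) with little further difference (-0.03). Nfkb2 (0.72) and Relb (0.30) rose, and the inhibitors Nfkbia (-0.25) and Nfkbie (-0.43) fell, the call for Nfkbia being lost without most single arrays. A kappaB-like motif, GGGNNTTCC on either strand, lay in the RefSeq promoter window (250 bases before to 50 after the start) of 6 of the 11 members with a window (54.5%), against 6.58% of 27025 genes. The Rel promoter is shown as the member of largest change, with its match in capitals; a match is a description of letters and not of a bound site.
Rel (GRCm38.p6, chr11:23770920-23771219, minus strand): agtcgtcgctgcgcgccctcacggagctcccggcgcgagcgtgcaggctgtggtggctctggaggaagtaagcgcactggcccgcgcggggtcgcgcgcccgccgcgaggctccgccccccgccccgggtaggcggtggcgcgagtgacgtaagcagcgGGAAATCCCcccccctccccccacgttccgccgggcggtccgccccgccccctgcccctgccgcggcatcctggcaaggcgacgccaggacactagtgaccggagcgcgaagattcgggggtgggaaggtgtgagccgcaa

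Costimulatory and tumour necrosis factor receptor family genes were mostly higher: 11 of 19 were higher and 2 lower, with a median of 0.34, and 9 of the higher and both of the lower genes did not overlap. Cd40lg, CD40 ligand, by which CD4 T-cells license B cells and medullary epithelium, was at 95.9, 289 and 775 in SP4 and at 24.9, 26.2 and 31.8 in CD69- DP (3.38 ± 0.25, adjusted p = 7.81e-07). Btla, an inhibitory receptor, was at 155, 319 and 487 in SP4 and at 38.2, 52.4 and 66.5 in CD69- DP (2.60 ± 0.19, adjusted p = 7.73e-07), and Cd226, which competes for nectin ligands, at 114, 171 and 220.3 in SP4 and at 33.6, 38.5 and 43.0 in CD69- DP (2.11 ± 0.10, adjusted p = 1.23e-08). No array of the other population reached into these ranges. Btla and Cd226 had reached their level by CD69+ DP (0.05 and 0.15 thereafter), whereas Cd40lg rose in both steps (1.30, then 2.08). Cd2 (1.04), Cd200 (1.29), Icos (0.67), Pdcd1 (0.84) and Tnfrsf4 (0.67) were also higher. The SLAM receptors Slamf1 (-0.61) and Slamf6 (-0.81), used between DP cells in the selection of innate-like lineages, fell without overlap. Cd27 illustrates a passing change, with 0.81 between the DP populations, -0.93 from CD69+ DP to SP4 and -0.12 over the whole passage (adjusted p = 0.38).

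**Figure D2:**
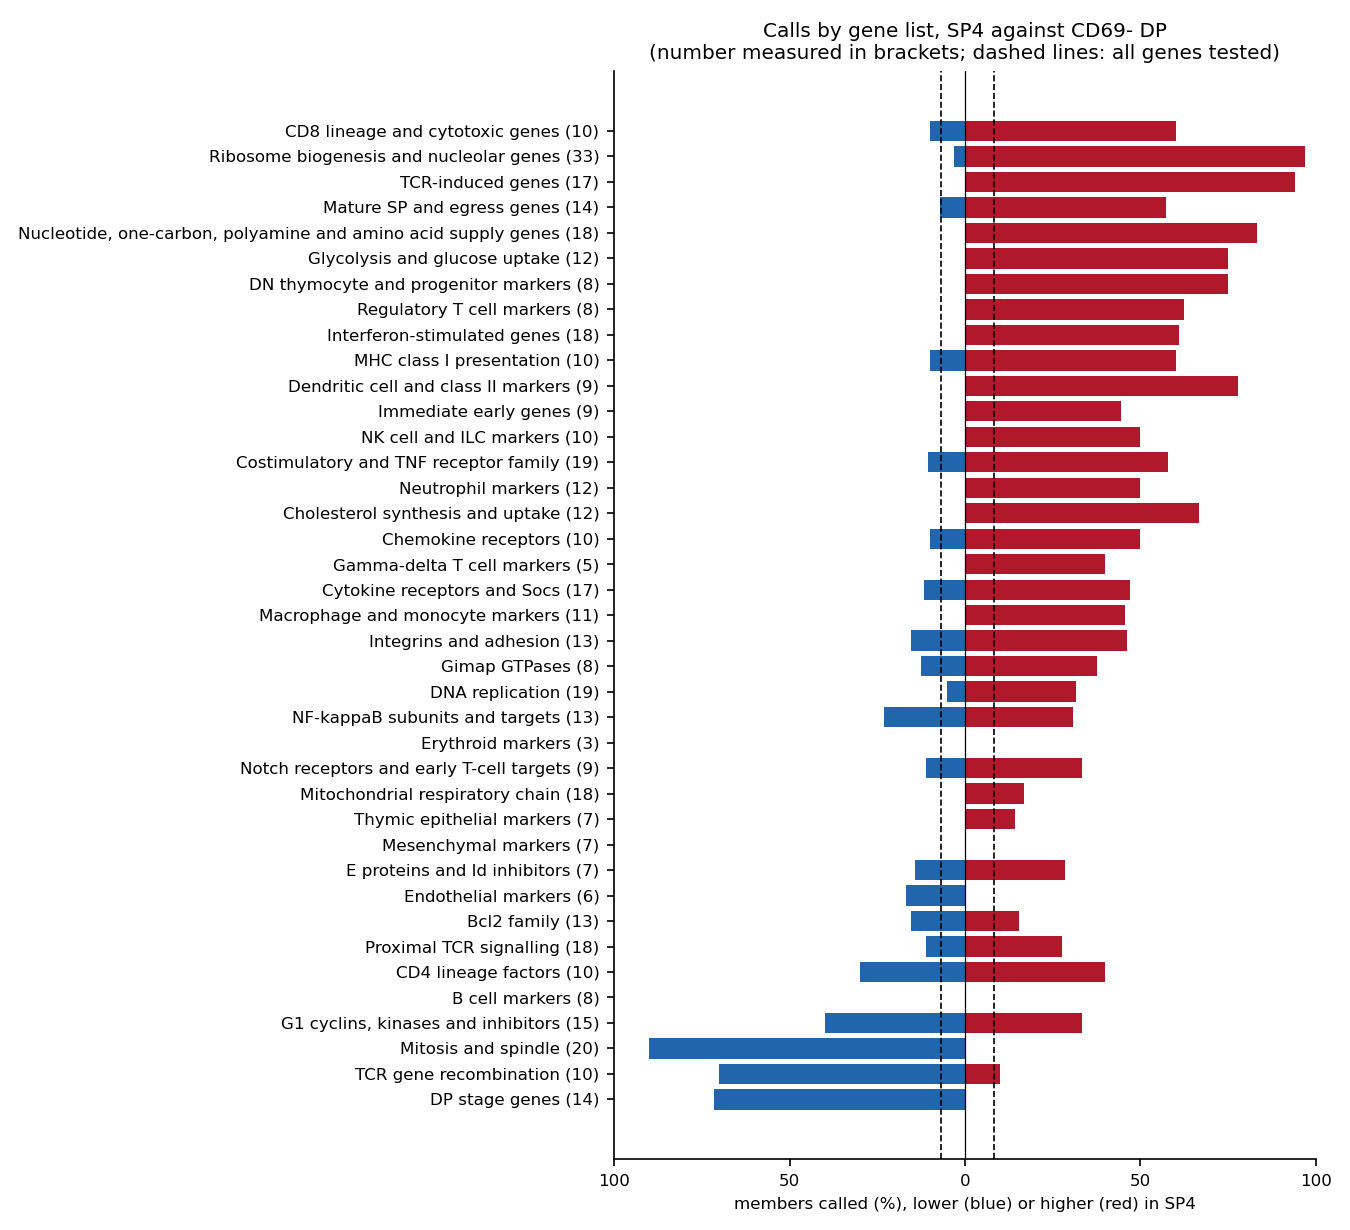
Percent of the measured members of the gene lists called higher (red, to the right) or lower (blue, to the left) in SP4 than in CD69- DP. The sex-linked, Mir181 and cystatin A lists are not drawn. Lists are ordered by their median log2 difference, with the number of members measured in brackets. The dashed lines mark the shares over all 22180 genes, 8.38% higher and 6.98% lower. Recombination, DP stage and mitosis genes lie to the lower side, and TCR-induced, interferon-stimulated, ribosome biogenesis and glycolysis genes to the higher side. The ribosome biogenesis list and the nucleotide, one-carbon, polyamine and amino acid supply list were added after the values were seen. Their places are a description and not a test.

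Genes of maturation and egress came next. Of 14 measured 8 rose and 1 fell (median 0.76), each of the 8 without overlap. S1pr1, the receptor by which mature cells leave along a sphingosine phosphate gradient, was at 93.1, 116 and 148 in SP4 and at 44.4, 53.1 and 65.7 in CD69- DP (1.07 ± 0.11, adjusted p = 1.33e-05), and Klf2, the factor that drives it, at 256, 296 and 452 in SP4 and at 125, 199 and 255 in CD69- DP (0.75 ± 0.13, adjusted p = 0.000886). Ccr7, which guides cells to the medulla, was at 209, 334 and 714 in SP4 and at 86.3, 128 and 167 in CD69- DP (1.47 ± 0.21, adjusted p = 0.000207). These 3 genes rose after CD69+ DP (second step 0.96, 0.75 and 1.22, first step 0.12 for S1pr1, 0.25 for Ccr7 and near zero for Klf2), while Il7r was divided between the steps (3.24, then 2.45). The integrin chain Itgb7 (0.88), the surface glycoprotein Cd52 (0.78) and the tetraspanning Ms4a4b (1.63) and Ms4a6b (1.32) were higher, the Ms4a probes being uncertain because close relatives may share them. Klf3 was the member that fell (-0.74 ± 0.15, adjusted p = 0.00265).

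Chemokine receptors were mostly called higher: 5 of 10 rose (50%) and 1 fell (10%), against 8.38% and 6.98% of all genes. Ccr8 was at 201, 411 and 942 in SP4 and at 26.0, 42.0 and 46.2 in CD69- DP (3.48 ± 0.26, adjusted p = 8.58e-07), Ccr4, which CD4 lineage cells use to enter the medulla, at 168, 339 and 471 in SP4 and at 41.1, 48.7 and 57.4 in CD69- DP (2.66 ± 0.15, adjusted p = 4.1e-08), and Ccr2 at 111, 116 and 256 in SP4 and at 36.1, 43.3 and 50.3 in CD69- DP (1.68 ± 0.14, adjusted p = 2.06e-06). The 3 differed in timing. Ccr4 was highest in CD69+ DP (median 509), Ccr8 rose in both steps (1.52, then 1.95), and Ccr2 mostly in the second (1.11). Cxcr4, which holds DP cells in the cortex, fell (-0.57 ± 0.10, adjusted p = 0.00129) without overlap. Of 17 cytokine receptors and Socs genes 8 rose (47.1%) and 2 fell (11.8%). Il2rb, the shared beta chain for interleukins 2 and 15, was at 139, 215 and 473 in SP4 and at 44.5, 49.1 and 61.5 in CD69- DP (2.16 ± 0.19, adjusted p = 3.65e-06), and Cish, a feedback inhibitor induced by STAT5, rose too (1.14 ± 0.13, adjusted p = 4.43e-05). Ifngr1 (-0.75) and Il4ra (-0.41) fell, and Socs1, whose loss is known to let CD8 cells respond to interleukin 7, stood at 0.04 (adjusted p = 0.901). Of 13 integrins and adhesion genes 6 rose (46%) and 2 fell (15.4%), against 8.38% and 6.98% of all genes. Itgb3 (1.18) and Cd44 (0.61) were among the higher and Itga6 (-0.63) among the lower.

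The Gimap family of immune GTPases, clustered in 1 locus and involved in T-cell survival, changed mainly through a single member. Gimap4 was at 512, 950.2 and 1523 in SP4 and at 43.3, 47.0 and 63.7 in CD69- DP (4.22 ± 0.15, adjusted p = 5.58e-10). The other 7 lay between -0.31 (Gimap1) and 0.67 (Gimap3). Of these Gimap3 and Gimap5 (0.35) rose, Gimap1 fell, a call lost when single arrays were left out, and 4 did not pass. Between the DP populations 6 of the 8 had risen, and 4 fell from CD69+ DP to SP4. Similar sequences within the family leave the division among members uncertain.

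Survival genes showed a comparable concentration. Bcl2 was at 765, 1378 and 1990 in SP4 and at 150.4, 176 and 207 in CD69- DP (2.89 ± 0.16, adjusted p = 3.86e-08). Bcl2l1 (Bcl-xL), the survival factor of DP cells, moved oppositely, at 192, 256 and 310.2 in SP4 and at 371, 415 and 471 in CD69- DP (-0.72 ± 0.09, adjusted p = 0.000114), and neither pair of ranges overlapped. Of the 13 family members measured 2 rose and 2 fell, 15.4% each way, against 8.38% higher and 6.98% lower over all genes. The other called members were the killers Bcl2l11 (Bim), which rose (0.85 ± 0.11, adjusted p = 7.94e-05) and had been higher in CD69+ DP (-0.44 thereafter), and Bmf, which fell (-0.33 ± 0.10, adjusted p = 0.0323) but lost its call without single arrays. Mcl1 stood at -0.03 (adjusted p = 0.859) and Pmaip1 (Noxa) at -0.17 (0.199).

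Interferon-stimulated genes were higher in SP4. Of 18 measured 11 rose and 0 fell, with a median of 0.46, and the medians of the 6 pairs lay between 0.38 and 0.46. Isg15, the ubiquitin-like modifier, was at 137, 165 and 324 in SP4 and at 59.9, 88.3 and 114 in CD69- DP (1.11 ± 0.19, adjusted p = 0.000735), Xaf1 at 184, 233 and 291 in SP4 and at 97.2, 108 and 128 in CD69- DP (1.08 ± 0.11, adjusted p = 1.22e-05), Oasl2 at 48.3, 61.3 and 80.1 in SP4 and at 22.0, 29.9 and 39.2 in CD69- DP (1.05 ± 0.14, adjusted p = 0.000169) and Rtp4 at 285, 312 and 389 in SP4 and at 129, 175 and 187 in CD69- DP (0.97 ± 0.11, adjusted p = 4.13e-05). All 4 were apart between populations. Ifit2 (-0.17, adjusted p = 0.28), Ifit3 (-0.01, 0.975) and Stat2 (0.04, 0.853) did not pass. Of 10 genes of MHC class I presentation 6 rose and 1 fell (median 0.43). Without the replicate number as a block 5 were higher and 0 lower, and several single arrays, the first WT SP4 array among them, also removed the fall when left out. H2-K1, a classical heavy chain, was at 233, 418 and 476 in SP4 and at 102, 138 and 184 in CD69- DP (1.50 ± 0.12, adjusted p = 1.57e-06), its probes being open to sharing among H2 genes, and B2m, the light chain, at 4739, 5304 and 5654 in SP4 and at 2830, 3272 and 3704 in CD69- DP (0.69 ± 0.06, adjusted p = 2.95e-06). An ISRE-like motif, GAAANNGAA on either strand, lay in the promoter windows of 7 of the 13 interferon-stimulated genes with a window (53.8%), against 9.76% of all genes. Isg15, the member of largest change, has 3 overlapping matches there (capitals).
Isg15 (GRCm38.p6, chr4:156200769-156201068, minus strand): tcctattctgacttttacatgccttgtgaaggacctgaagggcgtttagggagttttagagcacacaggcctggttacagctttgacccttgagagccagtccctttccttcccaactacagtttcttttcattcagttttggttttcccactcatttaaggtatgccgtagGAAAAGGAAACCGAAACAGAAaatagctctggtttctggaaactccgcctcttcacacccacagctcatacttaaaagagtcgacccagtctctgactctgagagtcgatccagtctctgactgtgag

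Cell cycle genes differed by phase. Of 20 mitotic genes 18 fell and 0 rose, with a median of -0.43 (all genes -0.01), while of 19 DNA replication genes 6 rose and 1 fell, with a median of 0.14. The calls were sensitive to the fit. Without the replicate number as a block 9 mitotic genes were lower and 1 replication gene higher, and leaving out single arrays gave 16 to 20 lower mitotic genes but 1 to 6 higher replication genes, with 1 without the first WT SP4, the second WT CD69- DP or the first Gli3-/- CD69- DP array. The members moved by less than 2-fold. Cenpf, a kinetochore protein, was at 301, 443 and 513 in SP4 and at 554, 847 and 955 in CD69- DP (-0.90 ± 0.11, adjusted p = 7.81e-05). Cenpe, the kinetochore motor, was at 546, 739 and 832 in SP4 and at 859, 1169 and 1310 in CD69- DP (-0.65 ± 0.09, adjusted p = 0.000182). Together with Top2a (-0.38 ± 0.07, adjusted p = 0.00142) they were the mitotic genes whose arrays did not overlap, but Top2a lost its call in the fit of all 18 arrays. Ccnb2, cyclin B2, was at 733, 1030 and 1292 in SP4 and at 1146, 1520 and 1815 in CD69- DP (-0.60 ± 0.09, adjusted p = 0.000286), and Cdc20, an activator of the anaphase-promoting complex, at 252, 346 and 466 in SP4 and at 387, 515 and 629 in CD69- DP (-0.52 ± 0.08, adjusted p = 0.000471). Aurkb (-0.31, adjusted p = 0.0788) and Birc5 (-0.29, 0.077) did not pass. On the replication side Mcm3, a subunit of the replicative helicase, was at 472, 667 and 698 in SP4 and at 349.7, 442 and 602 in CD69- DP (0.45 ± 0.08, adjusted p = 0.00139), and Mcm5 at 294, 462 and 600.5 in SP4 and at 245, 334 and 440.1 in CD69- DP (0.41 ± 0.11, adjusted p = 0.0177), with overlap. Mcm2 (0.28), Mcm4 (0.24), Mcm6 (0.25) and the loading factor Cdt1 (0.25) rose too. Rrm2, a subunit of ribonucleotide reductase, fell (-0.37 ± 0.08, adjusted p = 0.00456), a call lost in the fit of all 18 arrays, and Pcna (-0.05) and Mcm7 (0.00) did not pass (adjusted p = 0.742 and 0.987).

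The net differences were smaller than those at the intermediate stage. In CD69+ DP cells 20 of 20 mitotic and 19 of 19 replication genes were lower than in CD69- DP, with list medians of -1.29 and -0.86. From CD69+ DP to SP4, 19 of 20 and 19 of 19 rose, with medians of 0.86 and 1.07. Mcm3 passed through a median of 272 in CD69+ DP, Cenpf through 277 and Mki67, the proliferation antigen, through 1234, with Mki67 at 1662, 2090 and 2442 in SP4 and at 2189, 2651 and 2902 in CD69- DP (-0.34 ± 0.08, adjusted p = 0.00718). In the fit of all 18 arrays, from which the steps come, Mki67 did not pass between SP4 and CD69- DP. Since the steps share the CD69+ DP arrays, the opposite signs are given side by side and are not independent. The mitotic median was lowest in the first WT pair (-0.72), and the other pairs gave -0.31 to -0.48.

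The promoters of the members of largest change are shown because their letters differ between the lists. A CHR element (TTTGAA on either strand), a known site of repression in resting cells, lay in the windows of 12 of 16 mitotic genes with a window (75.0%), of 2 of 16 replication genes (12.5%) and of 20.2% of all genes. The CCAAT box (CCAAT on either strand) lay in 14 of 16 mitotic (87.5%), 12 of 16 replication (75.0%) and 41.1% of all windows. Matches to either motif are in capitals. Cenpf, Ccnb2 and Cdc20 hold both motifs, Cenpe only a CCAAT box, and Mcm3 and Mcm5 hold CCAAT boxes.
Cenpf (GRCm38.p6, chr1:189688037-189688336, minus strand): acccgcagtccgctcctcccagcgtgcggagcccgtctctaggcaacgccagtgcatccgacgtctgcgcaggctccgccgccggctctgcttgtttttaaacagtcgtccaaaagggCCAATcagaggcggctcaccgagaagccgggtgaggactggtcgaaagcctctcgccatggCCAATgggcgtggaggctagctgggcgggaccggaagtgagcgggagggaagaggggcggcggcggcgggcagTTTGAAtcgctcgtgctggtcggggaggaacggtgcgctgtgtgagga
Cenpe (GRCm38.p6, chr3:135212313-135212612, plus strand): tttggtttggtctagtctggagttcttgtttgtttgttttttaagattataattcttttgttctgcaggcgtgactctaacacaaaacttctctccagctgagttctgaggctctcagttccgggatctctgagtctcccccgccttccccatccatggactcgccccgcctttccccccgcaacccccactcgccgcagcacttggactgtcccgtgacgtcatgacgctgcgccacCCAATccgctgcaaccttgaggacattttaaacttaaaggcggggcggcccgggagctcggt
Ccnb2 (GRCm38.p6, chr9:70421505-70421804, minus strand): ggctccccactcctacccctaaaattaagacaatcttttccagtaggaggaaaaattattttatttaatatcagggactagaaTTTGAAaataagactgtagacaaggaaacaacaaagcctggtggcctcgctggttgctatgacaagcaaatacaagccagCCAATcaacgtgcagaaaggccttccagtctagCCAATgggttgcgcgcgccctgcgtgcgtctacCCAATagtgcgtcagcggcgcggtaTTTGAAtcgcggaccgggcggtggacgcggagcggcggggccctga
Cdc20 (GRCm38.p6, chr4:118437294-118437593, minus strand): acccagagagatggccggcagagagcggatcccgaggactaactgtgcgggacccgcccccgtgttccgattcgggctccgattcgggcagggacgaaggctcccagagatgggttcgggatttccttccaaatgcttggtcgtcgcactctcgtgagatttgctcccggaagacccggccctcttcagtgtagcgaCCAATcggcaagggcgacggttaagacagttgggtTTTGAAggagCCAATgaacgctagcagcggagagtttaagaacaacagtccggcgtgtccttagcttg
Mcm3 (GRCm38.p6, chr1:20820263-20820562, minus strand): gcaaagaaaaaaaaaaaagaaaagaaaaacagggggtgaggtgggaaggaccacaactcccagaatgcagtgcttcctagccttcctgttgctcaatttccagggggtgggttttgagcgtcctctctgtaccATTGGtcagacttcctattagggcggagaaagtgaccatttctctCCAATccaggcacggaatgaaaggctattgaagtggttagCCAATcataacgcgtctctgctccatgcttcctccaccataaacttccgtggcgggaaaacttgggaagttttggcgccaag
Mcm5 (GRCm38.p6, chr8:75109259-75109558, plus strand): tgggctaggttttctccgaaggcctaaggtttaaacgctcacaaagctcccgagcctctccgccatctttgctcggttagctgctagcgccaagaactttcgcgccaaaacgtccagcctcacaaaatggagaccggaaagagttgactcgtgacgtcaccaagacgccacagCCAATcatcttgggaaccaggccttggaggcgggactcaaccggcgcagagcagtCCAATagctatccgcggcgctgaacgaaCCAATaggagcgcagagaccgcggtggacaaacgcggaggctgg

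Regulators of G1 moved in both directions. Of 15 measured 5 rose (33.3%) and 6 fell (40%), against 8.38% and 6.98% of all genes. Ccnd2, cyclin D2, was at 514, 1284 and 2036 in SP4 and at 50.5, 59.7 and 73.2 in CD69- DP (4.19 ± 0.21, adjusted p = 1.28e-08), whereas Ccnd3, the D cyclin of DP cells, was at 633, 762 and 961 in SP4 and at 976, 1093 and 1349 in CD69- DP (-0.53 ± 0.09, adjusted p = 0.00122). The partner kinases Cdk4 (0.63) and Cdk6 (0.81) rose without overlap. Among inhibitors Cdkn2c (-0.78), Cdkn1b (-0.60) and Cdkn1c (-0.60) fell and Cdkn1a (0.54) rose. Ccnd2 was divided between the steps (1.76, then 2.42).

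Growth genes were almost all higher. Of 33 genes of ribosome biogenesis and the nucleolus, a list added after the values were seen, 32 rose and 1 fell, with a median of 0.89, 12 of them by at least 2-fold and 29 without overlap. Mdn1, the ATPase that remodels the large subunit precursor, was at 245, 340.0 and 449 in SP4 and at 102, 108 and 134 in CD69- DP (1.59 ± 0.10, adjusted p = 9.62e-08). Gnl3 (nucleostemin) was at 809, 944 and 1184 in SP4 and at 308, 382 and 431 in CD69- DP (1.34 ± 0.10, adjusted p = 5.02e-07), and Polr1b, a subunit of RNA polymerase I, at 114, 158 and 209 in SP4 and at 63.0, 69.6 and 77.8 in CD69- DP (1.13 ± 0.11, adjusted p = 1.07e-05). Npm1, nucleophosmin, was among the members of smallest rise (0.21 ± 0.07, adjusted p = 0.0394), with its call lost without single arrays, and Wdr12 was the one that fell (-0.46 ± 0.07, adjusted p = 0.000397). In the first step 27 of the 33 rose and in the second 17. Genes that supply nucleotides, one-carbon units, polyamines and amino acids, also listed after the values were seen, rose in 15 of 18 cases and fell in 0 (median 0.76). Slc7a5, the leucine transporter, was at 393, 487 and 635 in SP4 and at 111, 171 and 192 in CD69- DP (1.63 ± 0.10, adjusted p = 1.33e-07), and Shmt2, which feeds the mitochondrial one-carbon pathway, at 423, 757 and 1020 in SP4 and at 179, 237 and 322 in CD69- DP (1.55 ± 0.16, adjusted p = 1.86e-05). Here 6 rose in the first step and 15 in the second.

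**Figure D3:**
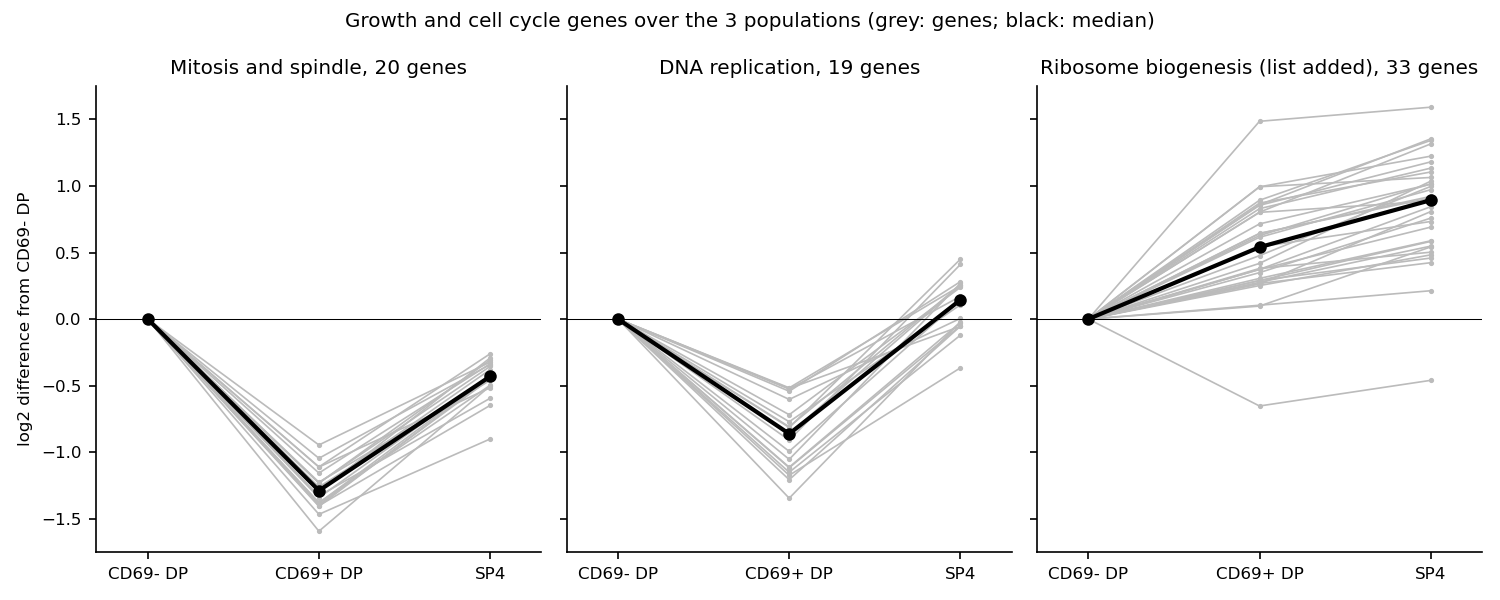
Log2 difference from CD69- DP in CD69- DP, CD69+ DP and SP4 for the members of the mitosis (20 genes), DNA replication (19) and ribosome biogenesis (33) lists; grey lines are genes and the black line is the list median. Both cell cycle lists dip in CD69+ DP and in SP4 come back to medians of -0.43 and 0.14. The median of the ribosome biogenesis list, which was added after the values were seen, climbs to 0.54 in CD69+ DP and to 0.89 in SP4.

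Energy and sterol metabolism shifted with them. Of 12 glycolytic genes 9 rose and 0 fell (median 0.55), among them Pkm, pyruvate kinase, at 1268, 1470 and 1934 in SP4 and at 744, 869 and 1107 in CD69- DP (0.81 ± 0.10, adjusted p = 6.64e-05), and Hk2, hexokinase 2 (0.76 ± 0.10, adjusted p = 0.000122). Of 12 genes of cholesterol synthesis 8 rose and 0 fell (median 0.31), led by Cyp51 (0.82 ± 0.13, adjusted p = 0.000521), and without the replicate number as a block 5 passed. The respiratory chain shared little of this. There 3 of 18 rose (16.7%, against 8.38% of all genes), 0 fell and the median was 0.03. Without the first WT SP4 array 0 of 18 rose.

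The remaining genes of largest rise are known for varied functions. Samhd1, a deoxynucleotide hydrolase, was at 678, 1216 and 1650 in SP4 and at 53.0, 55.6 and 74.1 in CD69- DP and had the smallest adjusted p of all genes (4.34 ± 0.13, adjusted p = 2.57e-10). Itm2a, a membrane protein induced by positive selection, was at 1348, 2246 and 3235 in SP4 and at 163, 189.8 and 257 in CD69- DP (3.50 ± 0.18, adjusted p = 2.06e-08), and had nearly reached its level in CD69+ DP (median 1572). Akr1c18, the 20-alpha-hydroxysteroid dehydrogenase, was at 178, 550.1 and 1087 in SP4 and at 27.9, 34.6 and 38.9 in CD69- DP (3.82 ± 0.24, adjusted p = 1.26e-07), rising in the second step (0.33, then 3.49). Of the calcium-binding S100 proteins, S100a6 was at 739.8, 1136 and 2260 in SP4 and at 46.7, 70.5 and 103 in CD69- DP (4.18 ± 0.17, adjusted p = 2.28e-09), and S100a4 at 592, 710.4 and 1038 in SP4 and at 88.0, 108 and 163 in CD69- DP (2.68 ± 0.13, adjusted p = 7.95e-09). Xcl1, a chemokine that draws cross-presenting dendritic cells, was at 442, 584 and 1190 in SP4 and at 66.5, 86.3 and 104 in CD69- DP (2.99 ± 0.13, adjusted p = 3.01e-09). Ifitm2 (3.06), Ly6c2 (2.98), the metalloprotease Adam19 (2.86) and the adhesion molecule Chl1 (2.70) completed the group. None of these overlapped.

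The remaining genes of largest fall were fewer and smaller in size, between -1.01 and -1.26. Spo11, the nuclease of meiotic breaks, was at 144, 223 and 400.3 in SP4 and at 408, 544 and 824 in CD69- DP (-1.26 ± 0.18, adjusted p = 0.000241). Rragd, a GTPase that signals amino acid supply to mTORC1, was at 64.2, 72.9 and 87.0 in SP4 and at 129, 163 and 189.5 in CD69- DP (-1.10 ± 0.11, adjusted p = 1.28e-05), and Cfap74, a ciliary protein, at 69.0, 109 and 134 in SP4 and at 204, 238 and 274 in CD69- DP (-1.21 ± 0.14, adjusted p = 3.7e-05). Cfap74 fell in the second step (-0.19, then -1.03), whereas Sytl3 (-1.02), a Rab effector, and P2ry10 (-1.01), a lysophospholipid receptor, had fallen by CD69+ DP (first step -1.35 and -1.01). F13a1 (-1.14), the interferon-inducible GTPase Gbp8 (-1.13), the calcium channel Cacna1e (-1.09), the formin Fmnl2 (-1.08), Wdr78 (-1.05), the epsilon tubulin Tube1 (-1.04) and the endonuclease Endou (-1.03) were the others. For 15 of the 16 lower genes of this rank the first WT SP4 array was the lowest SP4 array.

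Some of the largest rises were of genes that other cells express. S100a8, a calprotectin chain of neutrophils, was at 126, 538 and 619 in SP4 and at 16.8, 22.0 and 28.1 in CD69- DP (4.30 ± 0.23, adjusted p = 2.14e-08), and its partner S100a9 at 84.2, 218 and 312 in SP4 and at 28.6, 34.0 and 42.5 in CD69- DP (2.62 ± 0.24, adjusted p = 5.04e-06). Of 12 neutrophil markers 6 rose, with 4 to 7 when single arrays were left out, and the summed level of the list spanned 685 to 1613 in SP4 and 499 to 543 in CD69- DP, but the granule enzymes Elane (-0.10, adjusted p = 0.429), Prtn3 (0.05, 0.72) and Ltf (0.25, 0.0909) did not pass. Of 11 macrophage markers 5 rose (2 without the second WT CD69- DP array; summed level 767 to 1139 in SP4, 627 to 740 in CD69- DP), led by Lyz2 at 77.1, 159 and 257 in SP4 and at 21.9, 30.2 and 40.7 in CD69- DP (2.31 ± 0.21, adjusted p = 3.85e-06), with C1qa (0.05), C1qb (0.02) and Mrc1 (-0.02) not called. Of 9 dendritic cell and MHC class II genes 7 rose (853 to 2189 in SP4, 475 to 502 in CD69- DP), and the sums were 853 to 1331 on number 1 and 1892 to 2189 on number 2 SP4 arrays. H2-Ab1 was at 279, 824 and 1262 in SP4 and at 78.9, 92.4 and 110.1 in CD69- DP (2.92 ± 0.18, adjusted p = 8.8e-08), and Siglech, a marker of plasmacytoid dendritic cells, at 93.7, 127 and 141 in SP4 and at 55.0, 63.0 and 71.0 in CD69- DP (0.98 ± 0.09, adjusted p = 5.45e-06). Tyrobp, an adaptor of myeloid and NK receptors, was at 288, 648 and 1061 in SP4 and at 63.6, 68.8 and 90.1 in CD69- DP (3.04 ± 0.19, adjusted p = 1.38e-07). Their part in the results for SP4 was not tested.

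The cystatin A cluster, listed after its values were seen, rose with them, 6 of 6 members, 5 by at least 2-fold. Stfa1 was at 214, 1037 and 1673 in SP4 and at 24.6, 30.2 and 43.5 in CD69- DP (4.70 ± 0.31, adjusted p = 1.99e-07), and Cstdc4 at 55.7, 279 and 316 in SP4 and at 8.87, 9.30 and 10.8 in CD69- DP (4.50 ± 0.30, adjusted p = 1.99e-07), rising after CD69+ DP (3.70 and 3.69). These near-identical genes of leukocyte protease inhibitors cannot be told apart with certainty by probes. The first Gli3-/- SP4 array was the lowest SP4 array for S100a8, at 126, and for Stfa1, at 214.

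Other lists bore on the sort. Of 8 regulatory T-cell genes 5 rose (summed level 1939 to 2362 in SP4, 1085 to 1306 in CD69- DP), among them Ikzf2 at 692, 808 and 848 in SP4 and at 339.8, 382 and 406 in CD69- DP (1.06 ± 0.07, adjusted p = 1.38e-07) and Gpr83 (1.75 ± 0.22, adjusted p = 6.78e-05), but the defining factor Foxp3 was at 49.6, 51.1 and 53.5 in SP4 and at 43.2, 52.2 and 66.1 in CD69- DP (adjusted p = 0.878). Of 5 gamma-delta T-cell genes 2 rose (summed level 591 to 1025 in SP4, 418 to 479 in CD69- DP), Cd163l1 (1.45 ± 0.11, adjusted p = 1.27e-06) and Sox13 (0.57 ± 0.09, adjusted p = 0.000481). Of 8 markers of double negative and progenitor cells 6 rose, each by less than 2-fold (912 to 1161 in SP4, 694 to 775 in CD69- DP). B cell (8 genes), mesenchymal (7) and erythroid (3) markers gave 0 calls, thymic epithelium 1 of 7 and endothelium 1 of 6, Pecam1, which fell and which thymocytes also express. The part of these markers was not tested.

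**Figure D4:**
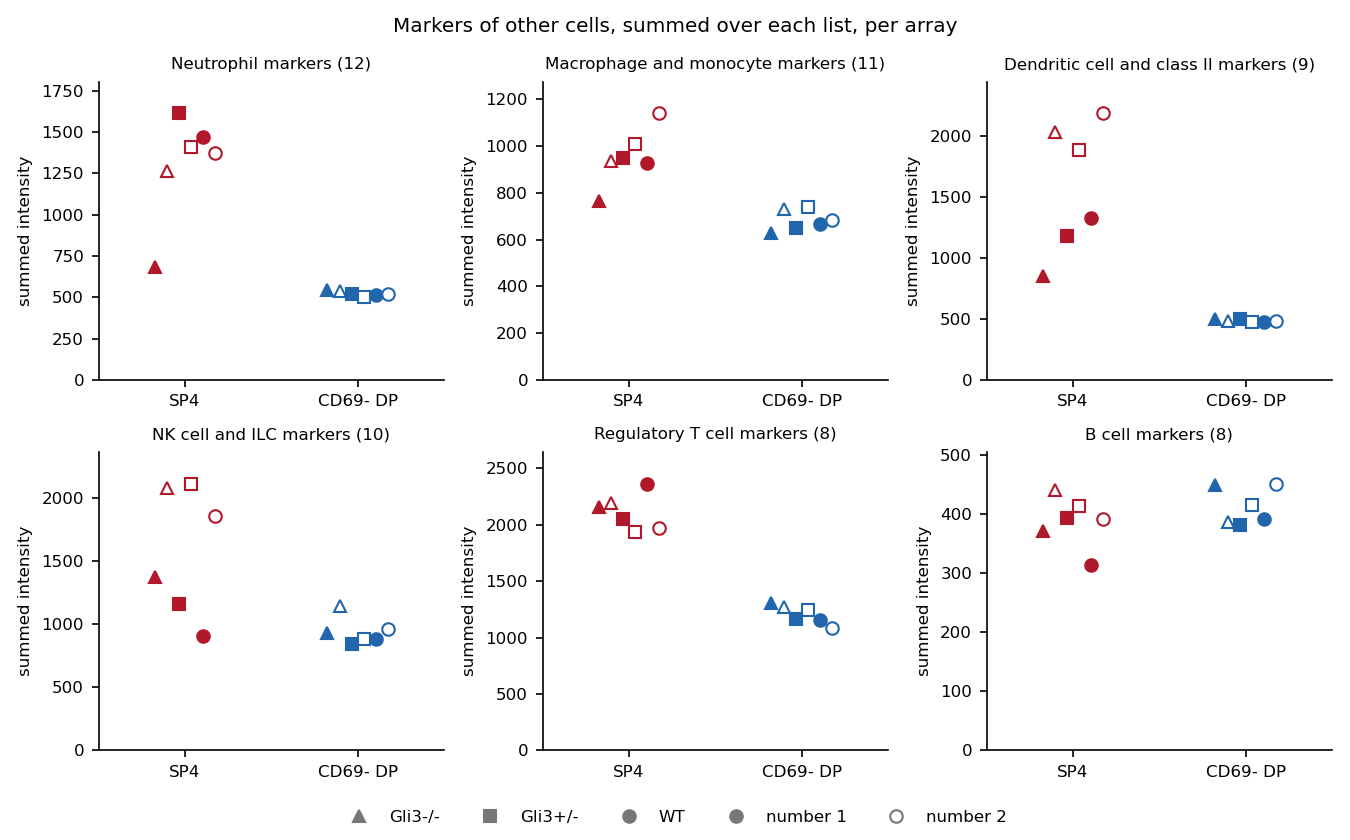
Summed linear intensity of 6 marker lists (neutrophil, macrophage, dendritic cell and class II, NK and innate lymphoid, regulatory T and B cell) on each array, with SP4 left of CD69- DP; filled points are number 1 and open points number 2 arrays. The neutrophil, macrophage, dendritic cell and regulatory T-cell sums of SP4 lie above those of CD69- DP, and the NK and B cell sums overlap.

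Within the genotypes only the size of the difference is described for the 36 genes of largest change, since their selection for no overlap fixed the direction. Each of the 16 lower genes had its largest difference in WT, as had 11 of the 20 higher genes. Cd8a differed by -0.80 in Gli3-/-, -0.85 in Gli3+/- and -1.59 in WT, and Slc7a11 by -0.89, -1.12 and -2.30 in the same order. The interaction that tests such differences called 0 of 22180 genes (0%) for Gli3-/- against WT (limma, smallest adjusted p = 0.616, 997 genes at an unadjusted p under 0.05) and 0 (0%) for Gli3+/- against WT (smallest adjusted p = 1, 752 genes unadjusted), with 2 arrays a group. Without the first WT SP4 array the counts were 3 and 1. Il7r differed by 5.55 in Gli3-/-, 5.28 in Gli3+/- and 6.26 in WT, and Bcl2 by 2.83, 2.74 and 3.08. Sex-linked signal also differed between the genotypes, so sex and genotype cannot be told apart in these comparisons.

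**Figure D5:**
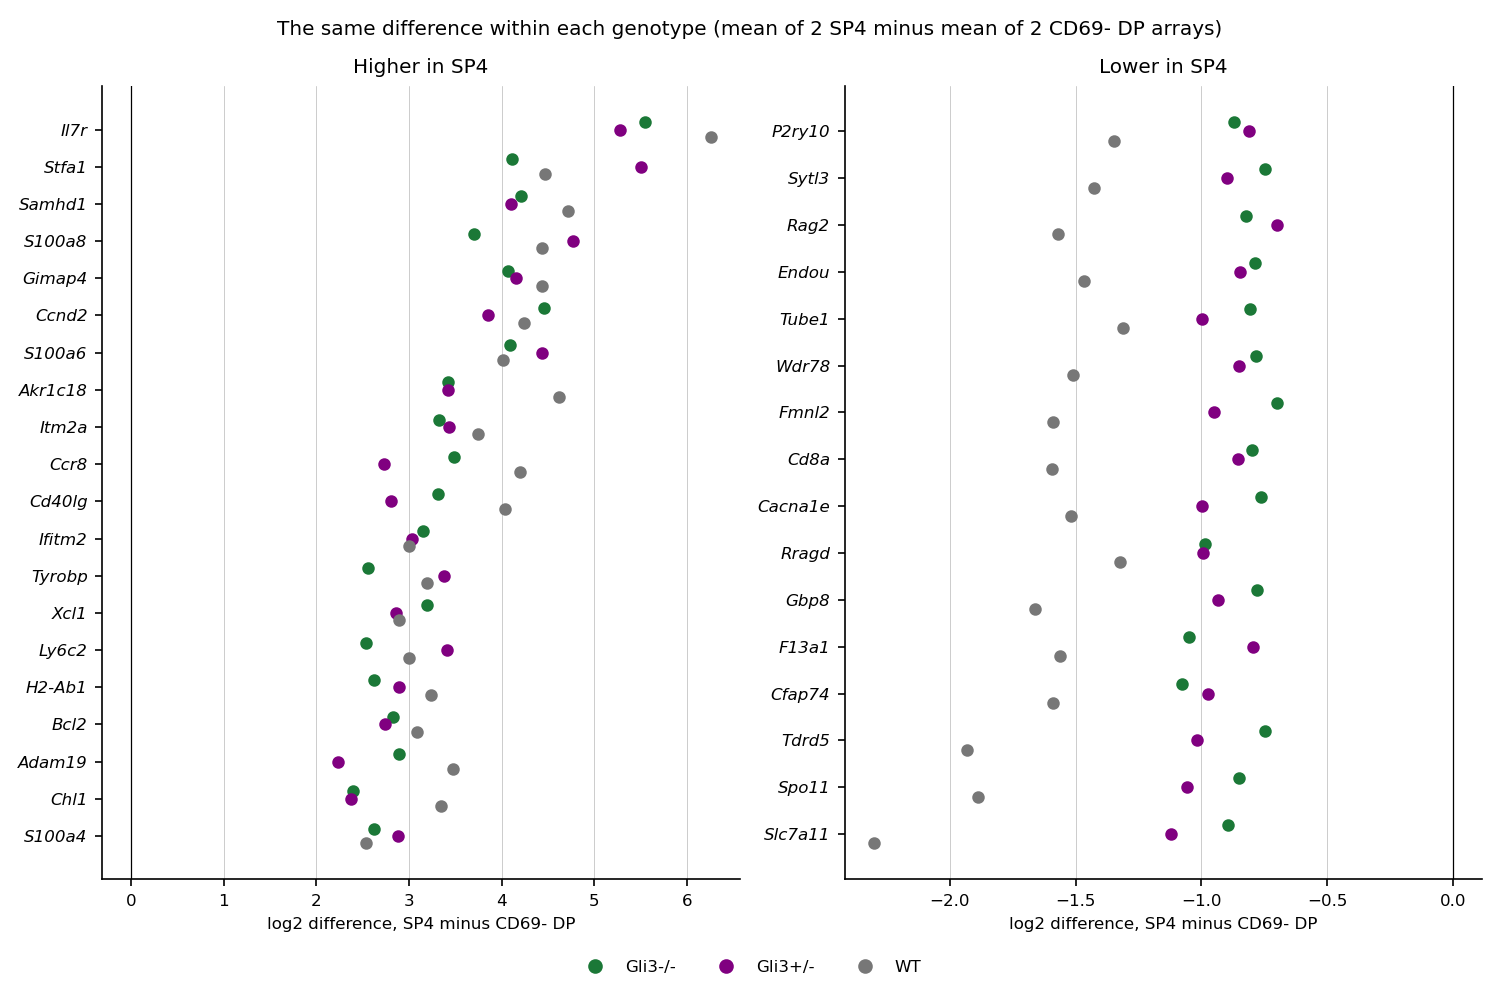
Log2 difference (SP4 minus CD69- DP) of the genes of largest change within Gli3-/- (green), Gli3+/- (purple) and WT (grey), in 1 panel for higher and 1 for lower genes; each point is the difference of means of 2 arrays a side. That the 36 genes lie on 1 side of zero follows from their selection for no overlap. The 16 lower genes lie furthest from zero in WT, the first WT SP4 array being the lowest SP4 array for 15 of them.

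Replicate number also set arrays apart. Arrays numbered 2 differed from arrays numbered 1 over the 12 arrays for 1589 genes, 1127 higher and 462 lower on number 2. The change from CD69- DP to SP4 itself differed with the number for 9 genes (0.0406%), 7 with a larger value on number 2 and 2 with a smaller one. Leaving out single arrays gave 4 to 27 such genes, 4 without the second Gli3+/- CD69- DP array, 5 without the first Gli3+/- or the second Gli3-/- CD69- DP array, 17 to 19 without the first or second Gli3-/- or the second WT SP4 array, and 27 without the second Gli3+/- SP4 array. The largest were Ccl5, a chemokine of cytotoxic cells, whose difference was 0.78 on number 1 and 2.43 on number 2, Klrk1 (NKG2D) with 0.47 and 2.07, and Rgs1 with 0.78 and 2.32. Cd69 moved the other way, with 2.84 on number 1 and 1.56 on number 2. Each of the 4 was higher in SP4 on both numbers. Klrk1 and Fcer1g (1.04 and 2.19) belong to the NK list, whose sum was larger on the number 2 SP4 arrays, and the part of NK cells was not tested. Sex-linked transcripts differed between arrays of the same population. The summed Y-linked genes were at 59.6 to 67.4 in the Gli3-/- arrays, with Xist at 3627 to 4850. On the first WT arrays they were at 1055 in SP4 and 1583 in CD69- DP, and the low Xist of these arrays (39.7 and 52.4) was found in both populations. On the second WT and all Gli3+/- arrays they were at 525 to 1146, with Xist at 2726 to 3207. Sex-linked signal thus differed with genotype, and sex and genotype cannot be told apart. Xist and the Y-linked genes measured were not called between SP4 and CD69- DP.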

How the data were processed

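RNA from sorted thymocytes of E18.5 fetuses was hybridised to Affymetrix GeneChip Mouse Gene 2.0ST arrays. The authors normalised all 18 arrays together by RMA with the oligo package of R, and the deposited values are linear intensities, 1 for each of 41345 transcript clusters. Package versions, the annotation release and the genome build were not found in the labels or methods (not given in the sources used here). Intensity was taken to log2. Arrays give no read depth, and their number limits the precision.

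Of the rows, 23521 carried 1 gene symbol, 1820 several and 16004 none, and 23328 matched RefSeq by gene identifier, with 0 symbols changed. Rows with 1 symbol were used, and for 1082 genes with several rows the row of highest mean. For 22180 genes SP4 was set against CD69- DP on 12 arrays with lmFit and eBayes (R 4.3.3, limma 3.58.1, 7 residual and 7.18 prior degrees of freedom), with genotype and replicate number as additive blocks and Benjamini-Hochberg adjustment over all genes. The methods of the study name limma's moderated statistic without a block. Number was a block by the rule set for this comparison. Deviations from the group means correlated between SP4 and CD69- DP arrays of the same number. The r across genes was 0.34 in Gli3-/-, 0.39 in Gli3+/- and 0.22 in WT. Across genotypes r reached similar or higher values (SP4 Gli3-/- with CD69- DP Gli3+/- 0.575 and with CD69- DP WT 0.429, SP4 Gli3+/- with CD69- DP WT 0.370, lowest 0.112). The correlation thus shows an effect of number shared by the genotypes. It cannot decide whether arrays of 1 genotype and number are pairs. In WT, Xist was alike within a number, at 39.7 in SP4 and 52.4 in CD69- DP on number 1. On number 2 it was at 2726 and 2946. Whether arrays of 1 genotype and number share a source was not tested. Groups came from the labels, and 0 columns belonged to no listed sample. Values for the steps to and from CD69+ DP came from a fit of all 18 arrays, and interactions with genotype and number were fitted on the 12. The fits were tested on simulated data.

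Named are Rag2, Dntt, Cd8a and Il7r; the 20 higher and up to 20 lower genes of largest log2 difference among those called with a difference of at least 1, a mean log2 of at least 5.95 (the median of all rows) and no overlap between populations; and members of the gene lists. Small RNAs, receptor gene segments of T and B cells, vomeronasal and olfactory receptors and genes without an established name were left out of the ranked genes, which left 175 higher and 16 lower genes to choose from. The members and the 38 lists were chosen with earlier results of these data known, and 4 more lists (ribosome biogenesis, nucleotide and amino acid supply, Mir181 hairpins and cystatin A) were added after the values were seen, as were the genes that differed by replicate number. Promoter windows and miRNAs came from RefSeq tables on GRCm38.p6. Alternatives were no replicate block, 1 block of 6 pairs, all 18 arrays, quantile or cyclic loess normalisation, brighter genes only, the mean of a gene's rows, a trended and robust prior, each number and genotype alone, and each array left out.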

Additional observations from a re-analysis of the deposited data

Results flagged for a closer look

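For the named genes the 6 arrays of a population were searched for 1 array apart from the other 5, in 396 sets of gene and population, of which chance alone gives about 1 in 20, and 26 had such an array. The first WT SP4 array was the one apart for 9 of them. It was the lowest SP4 array for Aqp11 (720.8, next array 1195), Arpp21 (364.2, next 780.7), Cd8a (1120, next 1938), Cd8b1 (1721, next 2644), Ifngr1 (866.8, next 1322), Myb (1106, next 1842), P2ry10 (182.1, next 312.5) and Sytl3 (132.6, next 247.7). It was the highest for Bcl2l11 (520.0, next 357.0). The first Gli3-/- SP4 array was the lowest for Cstdc4 (55.68, next 254.5), H2-K1 (233.4, next 389.6), S100a8 (126.2, next 495.0) and S100a9 (84.21, next 209.0). The second Gli3-/- SP4 array was the highest for Cd163l1 (394.5, next 265.7), Klf2 (452.3, next 301.8) and Prf1 (134.8, next 106.7), and the second Gli3+/- SP4 array for Cd1d1 (271.4, next 218.8).

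Among CD69- DP arrays the first Gli3-/- array was apart for C1qb (73.76, lowest), Rrm2 (2516, lowest), Hk2 (69.35, highest) and Samhd1 (74.12, highest). The second Gli3-/- array was the highest for Mrc1 (39.43). The first Gli3+/- array was the highest for Cd40lg (31.84) and the lowest for Socs1 (280.4), the second Gli3+/- array was the lowest for Ifit3 (194.0) and the second WT array for Gzmb (32.44).

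The change from CD69- DP to SP4 differed between replicate numbers for 9 genes by the interaction test (limma, adjusted over all genes). As the log2 difference on number 2 minus that on number 1, it was larger for Ccl5 (1.65), Klrk1 (1.59), Rgs1 (1.54), Fcer1g (1.15), 4930596I21Rik (1.14), Mir466h (1.09) and Mtfr2 (0.86), and smaller for Cd69 (-1.27) and Gm5481 (-1.11).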

How the results depend on the processing

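Without the replicate block 2533 genes passed, 1457 higher and 1076 lower, with 234 and 22 at least 2-fold. All 2533 were among the 3406. Of 162 named genes that passed, 13 lost their call in that fit (Cd24a, Cdc20, Cdt1, Gimap1, Hmgb2, Id3, Mcm2, Mcm4, Mcm5, Mcm6, Nfkbia, Npm1 and Zbtb7b). One block of 6 pairs gave 3186 genes, all 18 arrays 3520 (where 9 named genes lost their call, Bmf, Cdt1, Hmgb2, Id3, Mcm4, Mcm6, Mki67, Rrm2 and Top2a), quantile normalisation 3454, cyclic loess 3413, brighter genes only 3364, the mean of a gene's rows 3446 and a trended and robust prior 3404. Leaving out 1 array gave 2686 to 3367 genes, 1515 to 1875 higher, 1160 to 1494 lower, 205 to 260 at least 2-fold higher and 8 to 31 at least 2-fold lower, the 8 without the first WT SP4 array and 12 without the first WT CD69- DP array. The interaction counts were 0 to 3 for Gli3-/- (3 without the first WT SP4 array), 0 to 1 for Gli3+/- and 4 to 27 for replicate number. Among named genes 13 lost their call without at least 1 array (Bmf, Cd24a, Cdt1, Gimap1, Hmgb1, Hmgb2, Mcm2, Mcm4, Mcm5, Mcm6, Nfkbia, Npm1 and Zbtb7b) and 8 that had not passed gained one (Aurkb, Birc5, Cd1d1, Eomes, Fos, Jun, Klrb1c and Ltf). Smaller fits called fewer genes. Number 2 arrays alone called 1218 (806 higher, 412 lower, 13 at least 2-fold lower), WT alone 1206 (746, 460, 109), Gli3+/- alone 1194 (788, 406, 9) and Gli3-/- alone 397 (357, 40, 5), where 89.9% of calls were higher against 54.6% over all 12 arrays. Number 1 arrays alone gave 57 genes at least 2-fold lower. The cause of the differences beyond the smaller number of arrays was not tested. No called gene of those named changed direction under any of the 25 alternatives. Dim probes limit what could be called.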

Other observations

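Notch receptors and early T-cell targets, a group active before the DP stage, were not described above. Of 9 measured 3 rose and 1 fell in SP4 (median 0.04, 1 higher and 0 lower without the replicate number as a block). These are 33.3% and 11.1%, against 8.38% and 6.98% of all genes. Between the DP populations 0 were higher and 6 lower in CD69+ DP, and from CD69+ DP to SP4 7 were higher and 0 lower.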
